A study of Mus musculus with 8 samples.

Results

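The transcription factors that set monocyte and macrophage identity were followed across 8 microarrays of mouse mononuclear phagocytes. The 9 genes were Spi1, Cebpa, Cebpb, Maf, Irf5, Runx1, Runx3, Bhlhe40 and Zeb2, out of 19938 genes with a probe set carrying a single gene symbol. They were chosen by name, with earlier results of these data known. Each of the 9 had exactly 1 probe set, and each was at or above the array's median on 8 of 8 arrays. Cells were sorted from the colonic lamina propria or from spleen, and each of the 8 sorted groups is 1 array. All mice were C57BL/6 and carried the Cx3cr1gfp/+ genotype, in which 1 Cx3cr1 allele is replaced by a green fluorescent protein reporter, so every group shares that allele.

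The CX3CR1int population consisted of colonic Ly6Clo cells and colonic Ly6Chi cells, both taken on day 4 of colitis induced with dextran sodium sulphate, a detergent-like polymer that damages the colonic epithelium. The CX3CR1hi population consisted of F4/80hi colonic cells at the same day of colitis, F4/80hi colonic cells in steady state, monocyte-reconstituted resident colonic macrophages in steady state and resident colonic macrophages in steady state. The splenic population consisted of Ly6Chi monocytes on day 4 of colitis and Ly6Chi monocytes in steady state. By label, the 3 female arrays were those of reconstituted macrophages, resident macrophages and steady-state spleen, and 5 arrays came from males. The labels give no age and name no replicate, and they do not say whether animals were pooled. Tests were therefore made between the 3 populations, with 2 CX3CR1int, 4 CX3CR1hi and 2 splenic arrays. Arrays within a population differ in condition, sex or sorting gate, so the p-values measure the spread between such arrays. Values are log2 intensities, and they compare 1 gene between arrays, not different genes with each other.

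Monocytes are made in the bone marrow, circulate in blood and spleen, and enter the gut wall, where they replenish resident macrophages. PU.1, the product of Spi1, and the C/EBP factors open and activate the genes of the myeloid lineage, and lineage factors of the RUNX, IRF, MAF, basic helix-loop-helix and zinc-finger families act on top of them. In the colon, resident macrophages are known for strong production of interleukin-10, and monocytes that arrive during inflammation are known for production of inflammatory cytokines.

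Upstream sequence for 6 of the 9 genes was taken from a RefSeq promoter table (GRCm38.p6), which held 11 windows for Cebpa, Cebpb, Irf5, Runx1, Runx3 and Zeb2. Each window was the 250 bases before a transcript start. A set of 5 motifs bound by these factors was searched on both strands: GAGGAA, the core of PU.1 sites; TTGCNNAA for C/EBP; TGTGGT for RUNX; CACGTG, the E-box of BHLHE40, which reads the same on both strands; and CACCTG, the E2-box of ZEB2. The 3 windows below are shown as examples. The Runx3 window carries letters of its own RUNX family and of ZEB2, the Zeb2 window those of PU.1 and C/EBP, and the Cebpb window none. Capitals mark the motif letters as they read on the printed strand.
Runx3, chr4:135120395-135120644, plus strand: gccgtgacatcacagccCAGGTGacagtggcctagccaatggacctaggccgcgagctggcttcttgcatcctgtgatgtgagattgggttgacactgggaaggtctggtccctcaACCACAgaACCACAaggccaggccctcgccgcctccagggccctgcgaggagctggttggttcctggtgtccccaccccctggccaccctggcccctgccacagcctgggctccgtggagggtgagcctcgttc
Zeb2, chr2:45117443-45117692, minus strand: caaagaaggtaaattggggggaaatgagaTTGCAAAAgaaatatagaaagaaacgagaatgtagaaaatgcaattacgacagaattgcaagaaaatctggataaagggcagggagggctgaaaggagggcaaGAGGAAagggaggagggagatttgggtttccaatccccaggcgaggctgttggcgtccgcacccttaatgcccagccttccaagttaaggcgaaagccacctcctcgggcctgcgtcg
Cebpb, chr2:167688665-167688914, plus strand: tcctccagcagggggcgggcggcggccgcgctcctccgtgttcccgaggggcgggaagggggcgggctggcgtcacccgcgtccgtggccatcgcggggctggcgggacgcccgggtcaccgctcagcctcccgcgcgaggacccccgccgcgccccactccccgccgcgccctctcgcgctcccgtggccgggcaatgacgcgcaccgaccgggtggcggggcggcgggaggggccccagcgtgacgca
The Runx3 window held the RUNX letters in reverse complement at positions -134 and -126 from the start, and the E2-box in reverse complement at -233. The Zeb2 window held GAGGAA at -118 and TTGCNNAA at -221. The Cebpb window, at 81.6% G and C, held none of the 5 motifs.

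GAGGAA occurred in 5 of the 11 windows, those being 1 of Runx1 and all 4 of Zeb2, of which a pair overlaps in sequence. It occurred in 23.3% of 32851 windows of all genes. TTGCNNAA occurred in 1 window, against 9.6% of all windows. TGTGGT occurred in 1 window, against 14.0%, CACGTG in 1 Runx1 window, against 6.0%, and CACCTG in 1 Runx1 and 1 Runx3 window, against 17.2%. The pair of RUNX letters in Runx3 belongs to a run of 18 bases, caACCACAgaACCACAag, with capitals on the RUNX letters. It lies at chr4:135120509-135120526 on the plus strand, starting at position -136 from the Runx3 start. The same run lies at chr16:92826031-92826048 on the minus strand, 27 bases after a Runx1 start. Of the 32851 windows, taken with the 50 bases after the start, 4 held this run, and they belonged to Runx1, Runx2, Runx3 and the predicted gene Gm16225. A match of letters describes the sequence and does not show binding.

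Macrophage markers averaged 9.28 and 10.03 in the Ly6Clo and Ly6Chi CX3CR1int arrays, 11.66 to 11.86 in the CX3CR1hi arrays and 9.85 and 9.62 in the splenic arrays, over 8 genes. Monocyte markers averaged 8.83 in Ly6Clo cells, 11.27 in Ly6Chi cells, 7.27 to 7.62 in CX3CR1hi arrays and 11.85 and 11.81 in splenic arrays, over 6 measured genes. The Ly6Clo array stood apart in dendritic cell markers, with 7 of 7 at or above the array's median and a mean of 9.23, against 5 of 7 and 6.96 in Ly6Chi cells and means of 5.51 to 6.16 on the other 6 arrays. Its Ccr7 level was 11.66 and its Flt3 level 11.16. Epithelial markers were at or above the median for 7 of 9 genes in Ly6Clo cells, 8 of 9 in Ly6Chi cells and 9 of 9 in each CX3CR1hi array, against 1 to 3 of 9 in splenic arrays. Their mean was 8.43 and 8.64 in CX3CR1int arrays, 9.64 to 10.58 in CX3CR1hi arrays and 5.57 and 5.15 in splenic arrays. Of 11 measured T and innate lymphoid cell markers, 0 to 2 were at or above the median on any array, and of 6 eosinophil and mast cell markers none was. B and plasma cell markers were highest in Ly6Chi cells, with 7 of 8 at or above the median and a mean of 8.26, against 6.88 in Ly6Clo cells, 6.66 to 7.37 in CX3CR1hi arrays and 6.66 and 5.96 in splenic arrays. Stromal markers averaged 6.43 and 7.33 in Ly6Clo and Ly6Chi cells, 6.11 to 7.46 in CX3CR1hi arrays and 5.41 and 5.40 in splenic arrays. In bulk arrays of this kind, fewer cells of a type and less RNA per cell cannot be told apart.

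**Figure D1:**
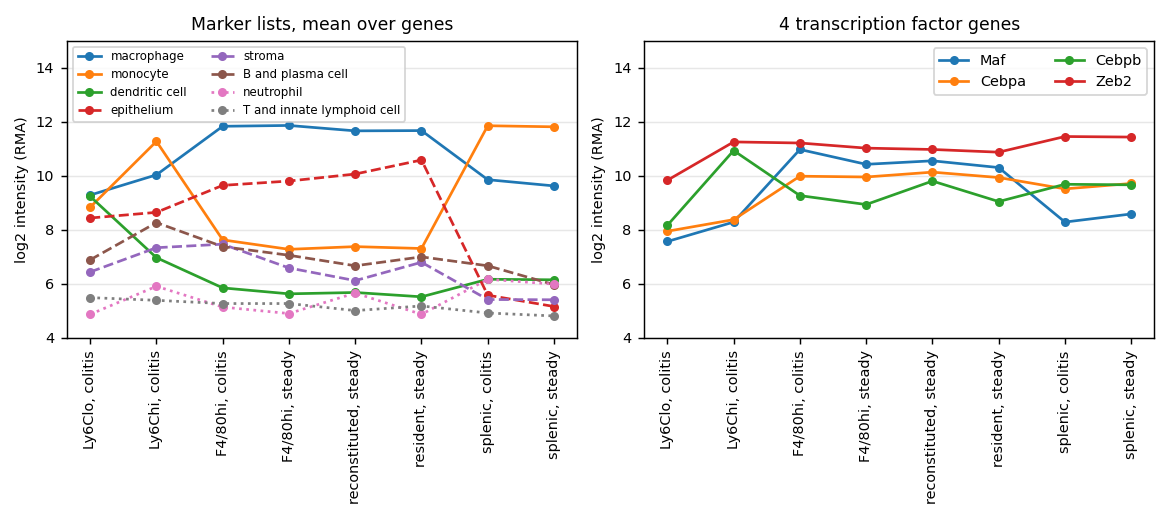
Mean log2 intensity of each marker list on each of the 8 arrays, with the CX3CR1int arrays on the left and the splenic arrays on the right, and the levels of Maf, Cebpa, Cebpb and Zeb2 on the same arrays in the right panel. Dendritic cell markers were highest in Ly6Clo cells (9.23), and epithelial markers were above 8 in all colonic arrays and below 6 in both splenic arrays.

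The 9 genes fell into patterns that differed between populations. Maf was highest in CX3CR1hi macrophages, and Cebpa was lowest in CX3CR1int cells. Runx3 and Bhlhe40 were higher in both colonic populations than in splenic monocytes. Irf5 and Spi1 were lower in CX3CR1hi macrophages than in splenic monocytes. Cebpb and Zeb2 lay far apart between the CX3CR1int arrays, and neither passed a test between populations.

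**Figure D2:**
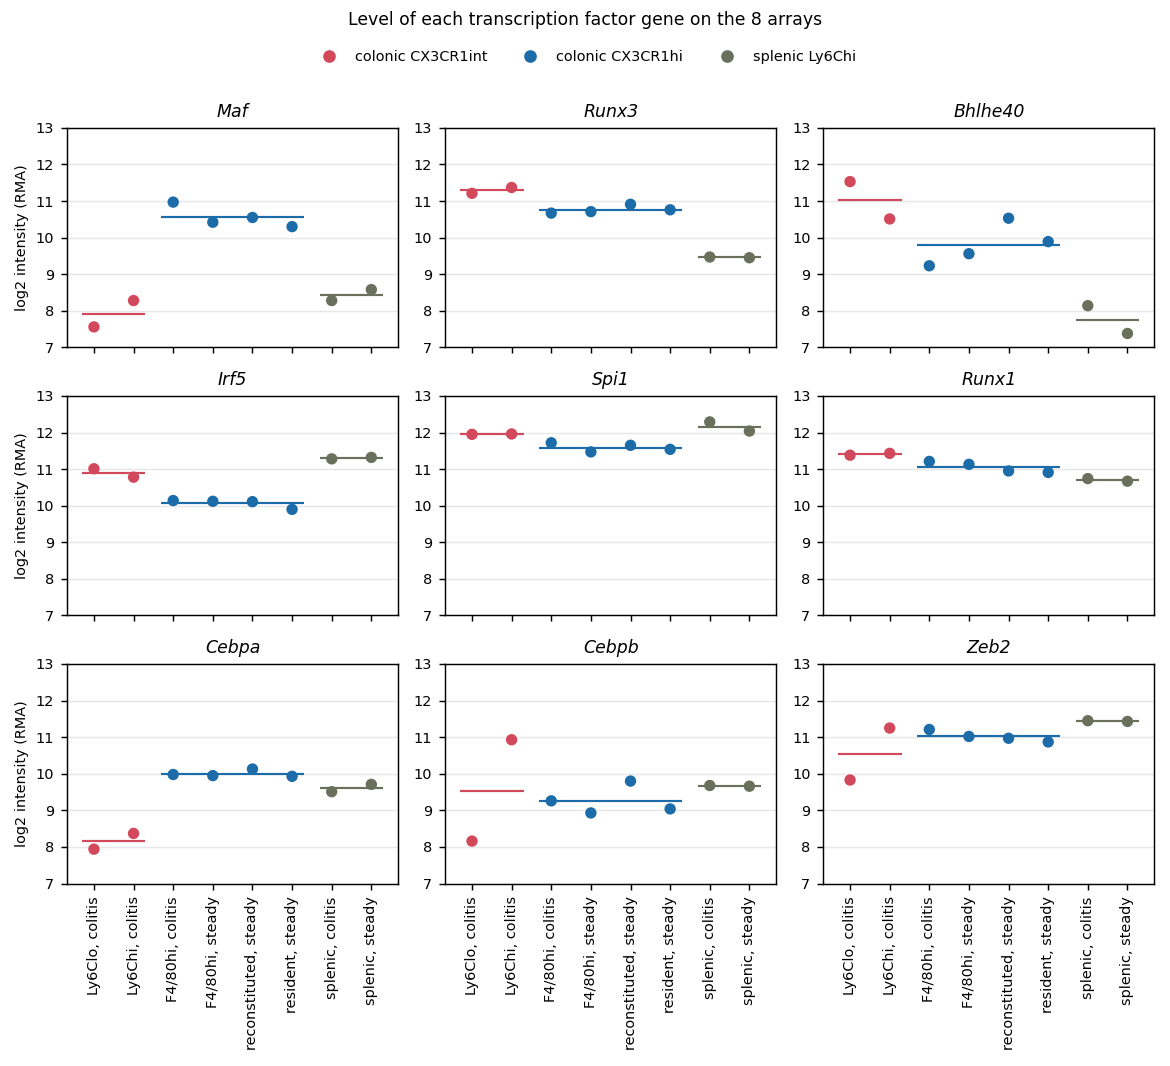
Log2 intensity of the 9 genes on each of the 8 arrays, 1 point per array, with CX3CR1int, CX3CR1hi and splenic arrays from left to right and a line at each population's mean. Across arrays Bhlhe40 spans 4.15 and Maf 3.41 on the log2 scale, while Runx1 spans 0.76 and Spi1 0.82.

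Maf encodes c-Maf, a basic leucine zipper factor known to activate Il10 and to restrain macrophage self-renewal. Its level was 7.56 in Ly6Clo and 8.28 in Ly6Chi CX3CR1int cells. In CX3CR1hi cells it was 10.97 in F4/80hi colitis, 10.42 in F4/80hi steady state, 10.55 in reconstituted and 10.30 in resident macrophages. In splenic monocytes it was 8.28 in colitis and 8.58 in steady state. All 4 CX3CR1hi arrays were above all others, and the CX3CR1int arrays were at or below the splenic ones. The mean of CX3CR1hi arrays was 10.56 ± 0.29 (SD, n = 4), against 8.43 ± 0.21 in splenic arrays (n = 2), a log2 difference of 2.13 ± 0.25 (SE), or 4.39-fold (limma, adjusted p = 0.000376). CX3CR1int cells averaged 7.92 ± 0.50 (n = 2) and were lower than CX3CR1hi cells by 6.23-fold, a log2 difference of -2.64 ± 0.25 (adjusted p = 0.000517). Between CX3CR1int and splenic arrays the log2 difference was -0.51 (95% confidence interval -1.18 to 0.17, adjusted p = 0.2314).

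Cebpa encodes C/EBPα, which commits progenitors to the granulocyte and monocyte lineages. Its level was 7.94 in Ly6Clo and 8.37 in Ly6Chi cells, the lowest of the 8 arrays. It was 9.98, 9.95, 10.13 and 9.93 in F4/80hi colitis, F4/80hi steady-state, reconstituted and resident macrophages, and 9.51 and 9.71 in colitis and steady-state splenic monocytes. The 3 populations did not overlap. CX3CR1int cells averaged 8.16 ± 0.30, and were 3.58-fold lower than CX3CR1hi cells at 10.00 ± 0.09 (log2 difference -1.84 ± 0.15, limma adjusted p = 0.000275). They were 2.73-fold lower than splenic monocytes at 9.61 ± 0.14 (log2 difference -1.45 ± 0.17, adjusted p = 0.0015). Between CX3CR1hi and splenic arrays the log2 difference was 0.39 and did not pass the test (adjusted p = 0.059), although it did without Ly6Clo cells (0.0202) or Ly6Chi cells (0.0201). It also passed with the arrays of the contrast alone (adjusted p = 0.0203), with a trended and robust variance (0.0495) and after repeated quantile normalization (0.52, adjusted p = 0.0178).

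Runx3 encodes a RUNX factor that acts downstream of TGF-β in leukocytes. Its level was 11.21 in Ly6Clo and 11.37 in Ly6Chi cells. It was 10.67 and 10.71 in F4/80hi cells in colitis and steady state, 10.91 in reconstituted and 10.76 in resident macrophages. In splenic monocytes it was 9.47 in colitis and 9.45 in steady state. The order CX3CR1int, CX3CR1hi, splenic held without overlap. CX3CR1hi cells, at 10.76 ± 0.10, were 2.47-fold higher than splenic monocytes at 9.46 ± 0.01 (log2 difference 1.30 ± 0.12, limma adjusted p = 0.000104). CX3CR1int cells, at 11.29 ± 0.11, were 3.56-fold higher than splenic monocytes (log2 difference 1.83 ± 0.13, adjusted p = 0.00027). They were 1.44-fold higher than CX3CR1hi cells (log2 difference 0.53 ± 0.12, adjusted p = 0.0138). With colitis or steady state as a block that last difference was 0.58 and missed the threshold (adjusted p = 0.0726).

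Bhlhe40 encodes a basic helix-loop-helix repressor that binds E-boxes and is known to restrain Il10 in T cells and macrophages. Its level was 11.53 in Ly6Clo and 10.51 in Ly6Chi cells. CX3CR1hi arrays held 9.23 in F4/80hi colitis, 9.56 in F4/80hi steady state, 10.53 in reconstituted and 9.89 in resident macrophages. Splenic monocytes held 8.14 in colitis and 7.38 in steady state. Every colonic array was above both splenic arrays, while the reconstituted array overlapped the CX3CR1int range. CX3CR1hi cells averaged 9.81 ± 0.55 and splenic monocytes 7.76 ± 0.53, a 4.13-fold difference (log2 2.05 ± 0.42, limma adjusted p = 0.0049). Without the steady-state splenic array this difference was 1.67 on the log2 scale (adjusted p = 0.0569). CX3CR1int cells, at 11.02 ± 0.72, were 9.60-fold higher than splenic monocytes (log2 difference 3.26 ± 0.49, adjusted p = 0.0038). Between CX3CR1int and CX3CR1hi arrays the log2 difference was 1.22 (95% confidence interval 0.24 to 2.19, adjusted p = 0.063). It was 1.46 without the reconstituted array (adjusted p = 0.0365), 1.73 without Ly6Chi cells (adjusted p = 0.0314) and 0.71 without Ly6Clo cells (adjusted p = 0.3014).

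Runx1 encodes the RUNX factor required for definitive blood formation. Its level was 11.38 in Ly6Clo and 11.43 in Ly6Chi cells, 11.21, 11.13, 10.95 and 10.91 in F4/80hi colitis, F4/80hi steady-state, reconstituted and resident macrophages, and 10.74 and 10.67 in colitis and steady-state splenic monocytes. The populations stood in the same order as for Runx3, within a span of 0.76. CX3CR1int cells, at 11.40 ± 0.04, were 1.62-fold higher than splenic monocytes at 10.71 ± 0.05 (log2 difference 0.70 ± 0.14, limma adjusted p = 0.0127). That call was lost without the steady-state splenic array (adjusted p = 0.1063), without the colitis splenic array (0.0707) and with the arrays of the contrast alone (0.053). CX3CR1hi cells, at 11.05 ± 0.14, were 1.27-fold higher than splenic monocytes (log2 difference 0.34 ± 0.12, adjusted p = 0.049). That call was lost without any 1 of the splenic colitis, splenic steady-state, F4/80hi colitis, F4/80hi steady-state or reconstituted arrays (adjusted p between 0.0567 and 0.2374), and with arrays centred on their medians (0.0549). Between CX3CR1int and CX3CR1hi arrays the difference was 0.35 (adjusted p = 0.0656).

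Irf5 encodes an interferon regulatory factor that acts after Toll-like receptor signals and is known to activate Il12b, Il6 and Tnf. Its level was 11.01 in Ly6Clo and 10.78 in Ly6Chi cells. It was 10.14, 10.12, 10.11 and 9.90 in F4/80hi colitis, F4/80hi steady-state, reconstituted and resident macrophages, and 11.28 and 11.32 in colitis and steady-state splenic monocytes. The 3 populations did not overlap. CX3CR1hi cells, at 10.07 ± 0.11, were 2.35-fold lower than splenic monocytes at 11.30 ± 0.03 (log2 difference -1.23 ± 0.12, limma adjusted p = 0.000187). CX3CR1int cells, at 10.89 ± 0.16, were 1.77-fold higher than CX3CR1hi cells (log2 difference 0.83 ± 0.12, adjusted p = 0.0035). They differed from splenic monocytes by -0.41 on the log2 scale (95% confidence interval -0.74 to -0.07), which missed the threshold (adjusted p = 0.0748) but passed it with arrays centred on their medians (-0.47, adjusted p = 0.0496).

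Spi1 encodes PU.1, the ETS factor without which macrophages do not form. Its level was 11.95 in Ly6Clo and 11.96 in Ly6Chi cells, 11.72, 11.47, 11.65 and 11.54 in F4/80hi colitis, F4/80hi steady-state, reconstituted and resident macrophages, and 12.29 and 12.04 in colitis and steady-state splenic monocytes. All arrays lay within 0.82. CX3CR1hi cells, at 11.59 ± 0.11, were 1.48-fold lower than splenic monocytes at 12.16 ± 0.17 (log2 difference -0.57 ± 0.12, limma adjusted p = 0.0066). The call was lost without the colitis splenic array (-0.45, adjusted p = 0.0829). CX3CR1int cells averaged 11.96 ± 0.01, and their differences from CX3CR1hi cells (0.36, adjusted p = 0.0608) and from splenic monocytes (-0.21, adjusted p = 0.321) did not pass. The first of these passed with a trended and robust variance (adjusted p = 0.0351) and with the stricter intensity filter (0.0487).

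Cebpb encodes C/EBPβ, which is induced by inflammatory signals and supports monocyte survival. Its level was 8.16 in Ly6Clo cells, the lowest of the 8 arrays, and 10.93 in Ly6Chi cells, the highest. CX3CR1hi cells held 9.26 in F4/80hi colitis, 8.93 in F4/80hi steady state, 9.80 in reconstituted and 9.04 in resident macrophages, and splenic monocytes held 9.68 in colitis and 9.66 in steady state. The CX3CR1int mean of 9.54 ± 1.96 therefore describes neither of its arrays. Its difference from the CX3CR1hi mean of 9.25 ± 0.39 was 0.29 on the log2 scale (95% confidence interval -1.22 to 1.80, limma adjusted p = 0.7679), and from the splenic mean of 9.67 ± 0.01 it was -0.13 (adjusted p = 0.9162). Without Ly6Clo cells these differences were 1.67 (adjusted p = 0.0092) and 1.26 (0.0397), and without Ly6Chi cells they were -1.09 (0.0321) and -1.51 (0.0126). In those fits the remaining CX3CR1int array is assumed to vary like the other populations.

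Zeb2 encodes a zinc-finger repressor of E2-boxes that is known to maintain tissue macrophage identity and to oppose the fate of type 1 dendritic cells. Its level was 9.83 in Ly6Clo cells and 11.25 in Ly6Chi cells. It was 11.21, 11.02, 10.97 and 10.87 in F4/80hi colitis, F4/80hi steady-state, reconstituted and resident macrophages, and 11.45 and 11.43 in colitis and steady-state splenic monocytes. The Ly6Clo array stood below the other 7, which lay within 10.87 to 11.45. The CX3CR1int mean of 10.54 ± 1.01 differed from the CX3CR1hi mean of 11.02 ± 0.14 by -0.48 (limma adjusted p = 0.3124) and from the splenic mean of 11.44 ± 0.01 by -0.91 (0.1264). Without Ly6Clo cells the differences were 0.23 (adjusted p = 0.3024) and -0.20 (0.4442), and without Ly6Chi cells -1.19 (0.002) and -1.62 (0.000649). Between CX3CR1hi and splenic arrays the difference was -0.42 (adjusted p = 0.3196), and without Ly6Clo cells the same difference passed (adjusted p = 0.0187), as it did without Ly6Chi cells (0.0186).

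Over the whole group, 6 of the 9 genes passed the test between CX3CR1hi and splenic arrays, 4 higher and 2 lower, where 51.2% of 10673 tested genes passed, 22.2% higher and 29.0% lower. The groups did not overlap for 8 of 9, against 74.3% of all tested genes. Between CX3CR1int and CX3CR1hi arrays 4 passed, Irf5 and Runx3 higher and Cebpa and Maf lower, against 29.9% of tested genes, 13.3% higher and 16.6% lower. Groups did not overlap for 6 of 9, against 48.9%. Without Ly6Chi cells the CX3CR1int side is the Ly6Clo array alone, with differences of 1.73 for Bhlhe40, -1.09 for Cebpb and -1.19 for Zeb2. Without Ly6Clo cells they were 0.71, 1.67 and 0.23, resting on the Ly6Chi array. Between CX3CR1int and splenic arrays 4 passed, Runx1, Runx3 and Bhlhe40 higher and Cebpa lower, against 24.4% of tested genes, 10.2% higher and 14.2% lower. Groups did not overlap for 8 of 9, against 68.3%. The median log2 differences of the 9 genes were 0.34, 0.35 and -0.21 in these contrasts, beside -0.12, 0.01 and -0.08 over all tested genes. Both CX3CR1int arrays came from colitis, as did 1 of the 4 CX3CR1hi arrays, and with colitis as a block the CX3CR1int minus CX3CR1hi differences were -2.80 for Maf (limma adjusted p = 0.0054), -1.77 for Cebpa (0.0049) and 0.80 for Irf5 (0.038). Epithelial and dendritic cell marker means also differed between the populations, as given above, and their part in these results was not tested. The contrasts share arrays, so their values are given side by side and not as separate support.

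**Figure D3:**
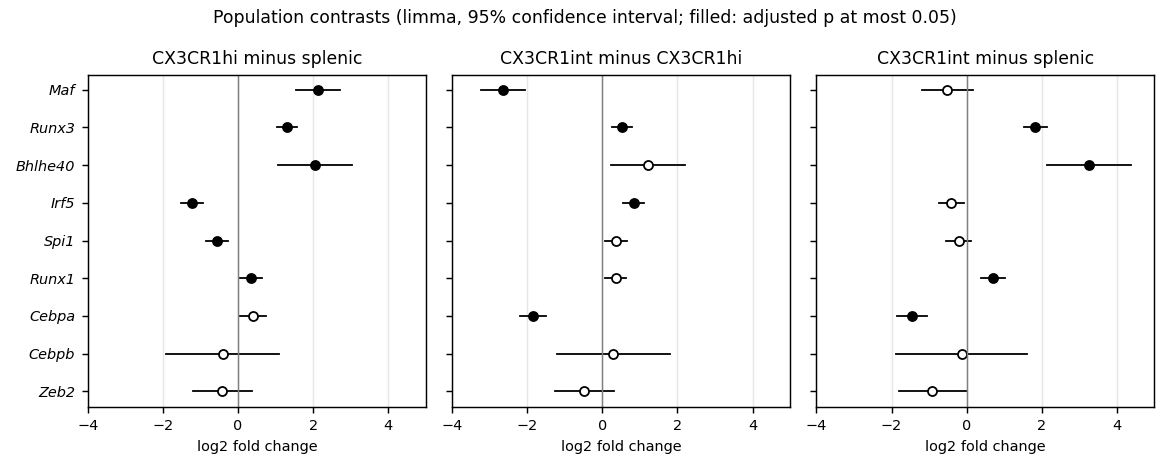
Log2 differences of the 9 genes in the 3 population contrasts, with 95% confidence intervals from limma and filled points where the adjusted p was at most 0.05. Maf is higher in CX3CR1hi than in splenic arrays (2.13) and lower in CX3CR1int than in CX3CR1hi arrays (-2.64), and the CX3CR1int intervals of Cebpb and Zeb2 are wide.

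Comparisons of single conditions rest on 1 array a side and have no test. A difference of 1 on the log2 scale, or 2-fold, was used as a mark of size. The steady-state F4/80hi and resident arrays, both of colonic CX3CR1hi cells in steady state but of different labelled sex, served as a yardstick. Between them the largest difference among the 9 genes was -0.33, for Bhlhe40, none was 2-fold apart, and 3.64% of genes were.

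Resident colonic macrophages are replaced by monocytes, and the first pair asks how far monocyte-derived cells match the residents. Reconstituted macrophages differed from resident macrophages by less than 2-fold for all 9 genes, where 1.76% of genes were 2-fold apart. All 9 were higher in reconstituted cells, with differences from 0.04 for Runx1 to 0.76 for Cebpb. Cebpb was at 9.80 in reconstituted and 9.04 in resident macrophages, and Bhlhe40 at 10.53 and 9.89, a difference of 0.64. The remaining 7 differed by at most 0.25, which is the value for Maf, and so lay near the spread of the yardstick. The median difference of all genes was -0.04. Epithelial markers averaged 10.06 in reconstituted and 10.58 in resident macrophages, and stromal markers 6.11 and 6.79. Neutrophil markers averaged 5.65 and 4.86, but only 2 of 9 and 1 of 9 were at or above the array's median. Mmp9 was at 11.88 and 6.88, while S100a8 (5.25 and 4.84) and S100a9 (4.91 and 4.65) lay below the medians. The part of these lists in the differences was not tested.

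Colitis left the 9 genes within 2-fold in F4/80hi macrophages, where 1.47% of genes were 2-fold apart. Maf was furthest up, at 10.97 in colitis and 10.42 in steady state, a difference of 0.55. Bhlhe40 was furthest down, at 9.23 in colitis and 9.56 in steady state, a difference of -0.33 that equals the yardstick's largest. Stromal markers averaged 7.46 in colitis and 6.58 in steady state, and their part in these values was not tested. In splenic monocytes none of the 9 was 2-fold apart between colitis and steady state, where 0.708% of genes were. Bhlhe40 was at 8.14 in colitis and 7.38 in steady state, a difference of 0.75, and Maf was at 8.28 and 8.58, a difference of -0.30. Maf and Bhlhe40 thus had opposite signs in the F4/80hi and the splenic pairs. Both splenic arrays also differ in labelled sex, which cannot be told apart from colitis there.

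Ly6Clo cells differed from Ly6Chi cells by at least 2-fold for 3 of the 9 genes, where 12.0% of genes were. Cebpb was 6.80-fold lower in Ly6Clo cells (-2.77 on the log2 scale), Zeb2 was 2.68-fold lower (-1.42) and Bhlhe40 was 2.03-fold higher (1.02). Maf differed by -0.71 and Cebpa by -0.42. Spi1 differed by -0.01, Runx1 by -0.06, Runx3 by -0.16 and Irf5 by 0.23, all within the yardstick's largest value. Dendritic cell markers, whose means were 9.23 in Ly6Clo and 6.96 in Ly6Chi cells, moved along with Cebpb and Zeb2 in the opposite direction, and monocyte markers, at 8.83 and 11.27, moved in the same direction. B and plasma cell markers (6.88 and 8.26) and stromal markers (6.43 and 7.33) were also lower in Ly6Clo cells. The part of these lists in the differences was not tested. Cebpb and Zeb2 were lower in Ly6Clo cells than on every other array.

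Ly6Chi cells of the inflamed colon were set against splenic Ly6Chi monocytes of the same condition, and 4 of the 9 genes were at least 2-fold apart, where 13.7% of genes were. Bhlhe40 was higher in the colon by 2.38 on the log2 scale, Runx3 by 1.90 and Cebpb by 1.25, and Cebpa was lower, at -1.14. Maf had the same level in both, 8.28, and Zeb2 differed by -0.21. Ly6Clo cells differed from splenic colitis monocytes by at least 2-fold for 5 genes, where 22.5% of genes did. Bhlhe40 was higher by 3.39 and Runx3 by 1.74, and Zeb2 (-1.63), Cebpa (-1.56) and Cebpb (-1.52) were lower. Epithelial markers averaged 8.43 in Ly6Clo and 8.64 in Ly6Chi cells, against 5.57 in splenic colitis monocytes. B and plasma cell markers averaged 6.88 and 8.26, against 6.66, and stromal markers 6.43 and 7.33, against 5.41. Their part in the differences was not tested.

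Against F4/80hi macrophages of the same colitis, Ly6Chi cells were at least 2-fold apart for 4 genes, where 14.4% of genes were. Cebpb was higher by 1.67 and Bhlhe40 by 1.28, and Maf (-2.69) and Cebpa (-1.61) were lower. Ly6Clo cells were at least 2-fold apart from the same macrophages for 5 genes, where 19.1% of genes were. Bhlhe40 was higher by 2.30, and Maf (-3.41), Cebpa (-2.04), Zeb2 (-1.38) and Cebpb (-1.10) were lower. The sign of the Cebpb difference was thus opposite in Ly6Clo and Ly6Chi cells, while Maf, Cebpa and Bhlhe40 kept theirs. These comparisons share the F4/80hi colitis array.

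**Figure D4:**
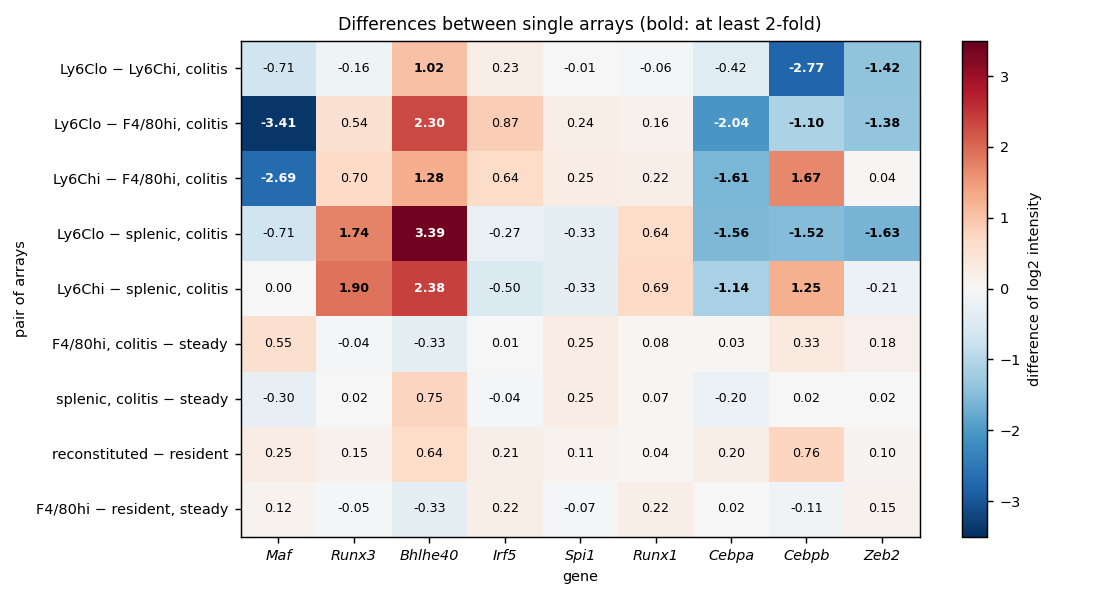
Heat map of the log2 differences of the 9 genes (columns) in the single-array comparisons (rows), 1 array a side, with no error and with values of at least 2-fold in bold. No gene passes 1 in either direction between reconstituted and resident macrophages or between colitis and steady state, and Cebpb is at -2.77 between Ly6Clo and Ly6Chi cells.

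Relatives of these factors were counted from lists of family members and partners, which were also chosen with earlier results of these data known. Of 7 measured genes of the interferon regulatory factor family other than Irf5, 4 were lower and none higher in CX3CR1hi than in splenic arrays by limma (none higher at an unadjusted p under 0.05 either), where 29.0% of all tested genes were lower and 22.2% higher. The median log2 difference of the 7 was -0.75, beside -0.12 over all tested genes. In CX3CR1int cells 4 were higher and none lower than in CX3CR1hi cells, where 13.3% and 16.6% of all tested genes were, with a median of 0.79 beside 0.01. Irf7, which amplifies type I interferon, averaged 10.31 in CX3CR1int, 8.56 in CX3CR1hi and 10.96 in splenic arrays (CX3CR1int minus CX3CR1hi 1.76 ± 0.24, limma adjusted p = 0.0023). Irf4 was at 9.46 in Ly6Clo and 8.11 in Ly6Chi cells, at 7.07 to 7.49 in CX3CR1hi cells and at 8.55 and 8.35 in splenic colitis and steady-state monocytes. The CX3CR1int minus CX3CR1hi difference of Irf4 was 1.57 ± 0.33 (adjusted p = 0.0123). Irf1 was higher in CX3CR1int cells than in splenic monocytes (1.09 ± 0.31, adjusted p = 0.0386), the only 1 of the 7 to pass in that contrast.

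Of 10 tested ETS genes other than Spi1, 2 were higher and 4 lower in CX3CR1hi than in splenic arrays, close to the 22.2% and 29.0% of all tested genes. Ets2 was higher by 3.74 ± 0.33 on the log2 scale (limma adjusted p = 9.35e-05). Spic, a PU.1 relative known for its role in red pulp macrophages, was lower in CX3CR1int than in CX3CR1hi cells, at means of 6.87 and 8.96 (-2.09 ± 0.34, adjusted p = 0.0046), in a contrast where 2 ETS genes were higher and 1 lower (13.3% and 16.6% of all tested genes). Between CX3CR1int and splenic arrays 3 were higher and 2 lower (10.2% and 14.2% of all).

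Of 3 tested C/EBP relatives, 1 was higher and 1 lower in CX3CR1hi than in splenic arrays, beside 22.2% and 29.0% of all tested genes. Ddit3, a stress-induced partner of C/EBP factors, was higher (2.33 ± 0.22, limma adjusted p = 0.000134), and Cebpg was lower (-0.61 ± 0.18, adjusted p = 0.0254). In CX3CR1int cells Ddit3 was lower than in CX3CR1hi cells (-0.74, adjusted p = 0.0383), where 16.6% of all tested genes were lower. Against splenic monocytes Ddit3 was higher (1.58, adjusted p = 0.005) and Cebpg lower (-1.09, adjusted p = 0.0101), beside 10.2% and 14.2% of all tested genes. Of 6 tested RUNX partners, none was higher (1 at an unadjusted p under 0.05) and 2 were lower in CX3CR1hi than in splenic arrays, beside 22.2% and 29.0% of all tested genes. Both of these, the corepressors Cbfa2t3 (1.72 ± 0.38, adjusted p = 0.0142) and Tle3 (1.25 ± 0.13, adjusted p = 0.000831), were higher in CX3CR1int than in CX3CR1hi cells, while the corepressor Tle1 was lower (-0.96, adjusted p = 0.0089). No RUNX partner passed between CX3CR1int and splenic arrays by limma (1 at an unadjusted p under 0.05), where 24.4% of all tested genes did, a contrast in which Runx3 itself was 3.56-fold apart.

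Of 6 tested small MAF and BACH or NRF genes, 3 were higher and 1 lower in CX3CR1hi than in splenic arrays, beside 22.2% and 29.0% of all tested genes. Maff was at 7.78 and 5.60, its splenic colitis level of 5.37 being below the median (2.17 ± 0.20, limma adjusted p = 0.000123), and unlike Maf it was also higher in CX3CR1int cells than in splenic monocytes, at 7.63 and 5.60 (2.03 ± 0.23, adjusted p = 0.0014). Between CX3CR1int and CX3CR1hi arrays 1 of the 6 passed, beside 29.9% of all tested genes, namely Bach1, which was higher (0.58, adjusted p = 0.0207). Of 9 tested relatives of Bhlhe40 and Zeb2, 4 were higher and none lower in CX3CR1hi than in splenic arrays by limma (5 and 0 at an unadjusted p under 0.05), beside 22.2% and 29.0% of all tested genes. Between CX3CR1int and splenic arrays none of the 9 passed (2 higher at an unadjusted p under 0.05), beside 24.4% of all tested genes. Bhlhe41, the closest relative of Bhlhe40, averaged 4.76 in CX3CR1int and 6.68 in CX3CR1hi cells, a log2 difference of -1.92. It reached the array's median only on CX3CR1hi arrays. It thus entered the tests, and the 4 counted as higher, only through the population where it was high, and no p-value is given for it. Bhlhe41 levels of 4.52 and 4.99 in CX3CR1int cells, and 5.52 in reconstituted macrophages, lie below the arrays' medians. The difference between CX3CR1int and CX3CR1hi arrays is therefore at best a lower bound in size. The Bhlhe40 difference there was 1.22 and did not pass. Zeb1, the relative of Zeb2, was at 9.25 in Ly6Clo and 7.51 in Ly6Chi cells, against 6.28 to 6.91 in CX3CR1hi cells (1.80 ± 0.43, adjusted p = 0.018). The Ly6Clo array therefore held the highest Zeb1 and the lowest Zeb2 level of the 8, and it also held the highest dendritic cell marker mean, whose part in these values was not tested.

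**Figure D5:**
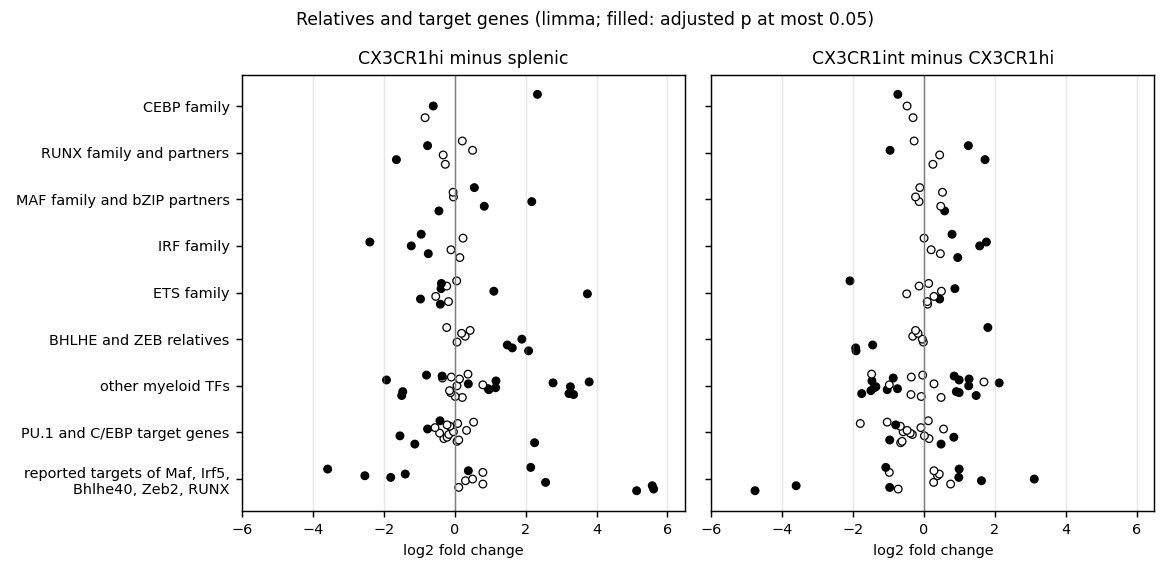
Log2 difference of each tested gene of the family and target lists, CX3CR1hi minus splenic on the left and CX3CR1int minus CX3CR1hi on the right, with filled points where limma's adjusted p was at most 0.05. None of the 7 interferon regulatory factor genes other than Irf5 passed as higher in CX3CR1hi than in splenic arrays, and 4 passed as lower.

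Of 18 tested genes known as targets of PU.1 and C/EBP factors, 1 was higher and 4 lower in CX3CR1hi than in splenic arrays, where 22.2% of all tested genes were higher and 29.0% lower. The median log2 difference was -0.19, beside -0.12 over all tested genes. Of the same 18, 2 were higher and 2 lower in CX3CR1int than in CX3CR1hi arrays (13.3% and 16.6% of all tested genes), and 1 was higher and 3 lower in CX3CR1int than in splenic arrays (10.2% and 14.2%). Csf1r, the receptor for the macrophage growth factor, was at 10.65 in Ly6Clo and 11.84 in Ly6Chi cells, against 12.18 to 12.25 in CX3CR1hi cells (-0.97 ± 0.28, limma adjusted p = 0.0351). Cd14, a lipopolysaccharide co-receptor, was higher in CX3CR1hi than in splenic arrays (2.25 ± 0.59, adjusted p = 0.0142).

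Of 15 tested genes reported as targets of Maf, Irf5, Bhlhe40, Zeb2 or the RUNX factors, 6 were higher and 4 lower in CX3CR1hi than in splenic arrays, beside 22.2% and 29.0% of all tested genes. In CX3CR1int cells 4 were higher and 4 lower than in CX3CR1hi cells (13.3% and 16.6% of all), and 7 were higher and 4 lower than in splenic monocytes (10.2% and 14.2% of all). Among those counted, Il6 and Il23a reached the arrays' medians only in CX3CR1int cells, and Cd4 only in CX3CR1hi cells. They entered the tests only through the population where they were high, so their calls are not used as support. Il10, which c-Maf is known to activate and Bhlhe40 to repress, was at 6.46 in Ly6Clo and 7.37 in Ly6Chi cells, at 9.92 to 11.01 in CX3CR1hi cells and at 5.04 and 4.87 in splenic colitis and steady-state monocytes. It was higher in CX3CR1hi than in splenic arrays by 5.57 ± 0.33 (limma adjusted p = 1.87e-05) and lower in CX3CR1int than in CX3CR1hi cells, with a log2 difference of -3.61 (adjusted p = 0.000465). Both splenic Il10 levels lie below the arrays' medians (5.80 in colitis and 5.78 in steady state), so Il10 is not shown to be above background there and the difference is at best a lower bound. Between CX3CR1int and splenic arrays Il10 was higher by 1.96 on the log2 scale (adjusted p = 0.0106), under the same limit, where Maf differed by -0.51 (adjusted p = 0.2314). Maf was higher in CX3CR1hi than in splenic arrays (2.13) and lower in CX3CR1int than in CX3CR1hi arrays (-2.64). Bhlhe40 was higher than in splenic arrays in both colonic populations, by 2.05 in CX3CR1hi and 3.26 in CX3CR1int cells. Il6, reported as an Irf5 target, averaged 8.29 in CX3CR1int and 5.18 in CX3CR1hi cells, a log2 difference of 3.11. All CX3CR1hi and splenic Il6 levels lie below the arrays' medians, so no p-value is given for it. Splenic monocytes had the highest Irf5 levels and an Il6 mean of 4.69. Tnf, another Irf5 target, was lower in CX3CR1int than in CX3CR1hi cells (-1.08, limma adjusted p = 0.0103). It was higher in CX3CR1hi than in splenic arrays (2.14, limma adjusted p = 0.00019). Il12b, also named as an Irf5 target, was at 8.28 in Ly6Clo and 5.23 in Ly6Chi cells. It was at 5.67 to 6.15 in CX3CR1hi cells and at 5.20 and 5.23 in splenic colitis and steady-state monocytes. It passed in no contrast, and its CX3CR1int mean describes neither of its arrays. The part of Irf5 in the levels of Il6, Tnf and Il12b was not tested. Cdh1, a ZEB target, was at 10.49 in Ly6Clo and 9.55 in Ly6Chi cells, at 10.38 to 11.23 in CX3CR1hi cells and at 5.28 and 5.02, below the medians, in splenic colitis and steady-state monocytes. Cdh1 is also 1 of the 9 epithelial markers, which showed the same split between colon and spleen, and their part in it was not tested.

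Among the 9 genes, Runx3 and Bhlhe40 had the highest correlation of levels over the 8 arrays (Pearson r = 0.93, Spearman rho = 0.93), together with Spi1 and Irf5 (r = 0.93, rho = 0.88). Runx1 and Runx3 had r = 0.87 and rho = 0.79, and Cebpa and Maf had r = 0.82 and rho = 0.98. Runx1 and Bhlhe40 had r = 0.78 and rho = 0.67, and Cebpb and Zeb2 had r = 0.70 and rho = 0.60. The lowest r was -0.88, for Maf and Irf5 (rho = -0.57). The arrays fall into 3 populations, so these values describe that layout and carry no p.

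For each gene the 3 genes with the most similar pattern were taken from tested genes with an SD of at least 0.5 over the 8 arrays. Unnamed, predicted, olfactory and vomeronasal receptor genes were left out before the ranking. The nearest to Maf were Tpp1 (Pearson r = 0.992), Zfhx3 (0.991) and Pigz (0.991). The nearest to Cebpa were Sec14l1 (0.984), Cx3cr1 (0.982) and Tmem205 (0.973). Cx3cr1 itself was at 7.51 and 7.95 in Ly6Clo and Ly6Chi cells, at 10.88 to 11.34 in CX3CR1hi cells and at 9.95 and 10.76 in colitis and steady-state splenic monocytes, and the sorted populations are named by CX3CR1. The nearest to Irf5 were Prkd3 (0.996), Sla (0.995) and Atp10d (0.995), and the nearest to Spi1 were Fam117a (0.978), B9d2 (0.972) and Stn1 (0.968). The nearest to Runx3 were Mxd1 (0.993), Kdm6b (0.985) and Chd7 (0.984), and the nearest to Runx1 were Rnf24 (0.961), Eid3 (0.957) and Ctla4 (0.949). The nearest to Bhlhe40 were Dot1l (0.987), Nr4a2 (0.978) and Nr4a3 (0.978). Cebpb followed Tgm1 (0.97), Cfb (0.929) and Rffl (0.928), and Zeb2 followed Tlr8 (0.98), Arap1 (0.978) and Dok3 (0.976). These likenesses are descriptions over 8 arrays that share their populations.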

How the data were processed

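RNA of sorted cells was hybridised to Affymetrix arrays, 1 array per group. The deposited values are log2 intensities, made by the authors with RMA and Partek per the submitters' processing notes. Versions and a genome build are not given in the sources used here. Of 35399 probe sets, 21789 carry 1 gene symbol, 1621 several and 11989 none, and for 19938 genes the single-symbol probe set with the highest mean was used. Array medians were 5.77 to 5.87, and the number of arrays limits the precision.

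A gene was tested if it was at or above the array's median on at least 2 arrays (10673 genes). limma 3.58.1 in R 4.3.3 fitted 3 populations over 8 arrays, and p-values were adjusted over all tested genes by Benjamini-Hochberg with a threshold of 0.05. In single-array comparisons a gene entered if it reached the array's median on the brighter of both arrays. The fit was also run on simulated arrays with independent noise and fewer changed genes than here. That run checks the code and not the design of these data. The genes and lists were chosen with earlier results of these data known. From each list, up to 3 called genes with the largest change per contrast could be named. Not all that qualified were named, and Tnf, Il12b and Il23a were named outside this rule. For each member the 3 genes of highest correlation were named, and in single-array comparisons members at least 2-fold apart or furthest apart. Alternatives were no filter or a stricter one, averaged probe sets per gene, centring or quantile scaling, a trended robust variance, labelled sex or colitis as a block, the arrays of a contrast alone, the leaving out of every array in turn and a minimum of 2-fold.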

Additional observations from a re-analysis of the deposited data

Results flagged for a closer look

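Irf5 in resident macrophages lay apart from the other 3 CX3CR1hi arrays. Its level was 9.90, against 10.11 in reconstituted, 10.12 in steady-state F4/80hi and 10.14 in colitis F4/80hi cells, so the gap to the nearest array took a share of 0.873 of the range, past the 95% limit of Dixon's test for 4 samples. The same check was made for 9 genes, and chance passes about 1 in 20 such groups. The difference is small beside the 1.23 on the log2 scale by which CX3CR1hi cells were lower in Irf5 than splenic monocytes.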

How the results depend on the processing

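No paired analysis was possible because the labels give no replicate numbers. Leaving out 1 array at a time gave log2 differences of -1.09 to 1.67 for Cebpb and -1.19 to 0.23 for Zeb2 between CX3CR1int and CX3CR1hi arrays, and of -1.51 to 1.26 for Cebpb between CX3CR1int and splenic arrays, the extremes coming from leaving out Ly6Chi or Ly6Clo cells. No other difference of the 9 genes changed sign under any alternative run. Of 459 recomputed differences, 425 kept direction and side of the threshold, 19 newly passed and 12 no longer passed. Over the 8 fits without 1 array, 4 to 8 of the 9 genes passed between CX3CR1hi and splenic arrays, 4 to 7 between CX3CR1int and CX3CR1hi arrays and 3 to 6 between CX3CR1int and splenic arrays. Without Ly6Clo, Ly6Chi or 1 of the splenic arrays, that population is left with 1 array, on which the count rests. Requiring 2-fold left 2 genes between CX3CR1int and CX3CR1hi arrays. Over all genes, called counts between CX3CR1hi and splenic arrays were 5466, with 3505 under a filter at the 75th percentile, 2589 with a 2-fold minimum and 3119 to 6386 without 1 array (3119 without steady-state and 3306 without colitis splenic monocytes). Between CX3CR1int and CX3CR1hi arrays they were 3186, with 1992 with sex as a block and 972 with colitis as a block. With a 2-fold minimum they were 1480. In the fits without 1 CX3CR1hi array they were 2447 to 2899 of 10559 to 10631 tested genes, beside 4 to 5 of the 9. Between CX3CR1int and splenic arrays they were 2605, with 1643 with colitis as a block, 947 with the arrays of the contrast alone, 1338 with a 2-fold minimum and 619 to 3732 without 1 array (619 without steady-state and 877 without colitis splenic monocytes). Some of these fits held fewer genes or arrays, and the causes of the shifts were not tested. Counts of members 2-fold apart on single arrays did not move under the alternatives run.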

Other observations

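Of 25 tested myeloid transcription factors outside these families, 10 were higher and 5 lower in CX3CR1hi than in splenic arrays, beside 22.2% and 29.0% of all tested genes. In CX3CR1int cells 8 were higher and 8 lower than in CX3CR1hi cells (13.3% and 16.6% of all), and 10 were higher and 3 lower than in splenic monocytes (10.2% and 14.2% of all). Nr4a2, an orphan nuclear receptor induced early after stimulation, averaged 10.97 in CX3CR1int, 8.85 in CX3CR1hi and 6.08 in splenic arrays, with a log2 difference of 4.89 ± 0.49 between CX3CR1int and splenic arrays (limma adjusted p = 0.000838). Nr4a3 averaged 10.32, 8.63 and 4.84 in the same order, and it was also among the 3 genes nearest to Bhlhe40 in pattern. Egr2, an early growth response factor, was higher in CX3CR1hi than in splenic arrays by 3.35 ± 0.18 (limma adjusted p = 1.31e-05) and in CX3CR1int than in splenic arrays by 2.97 ± 0.21 (adjusted p = 0.00027). Klf2 was lower in CX3CR1int cells than in CX3CR1hi cells, at 7.48 and 8.98 (-1.50 ± 0.37, limma adjusted p = 0.0198). Gata6 was lower as well, at 6.90 and 8.66 (-1.76 ± 0.25, adjusted p = 0.003). Gata6 and Myb, which was higher in CX3CR1hi than in splenic arrays (3.26 ± 0.24, adjusted p = 4.23e-05), are also known from gut epithelium, and epithelial markers averaged 8.43 and 8.64 in CX3CR1int, 9.64 to 10.58 in CX3CR1hi and 5.57 and 5.15 in splenic arrays. Their part in these values was not tested. Splenic levels of Nr4a3, Myb and Gata6 in both conditions, and of Nr4a2 in steady state, lie below the arrays' medians, so differences from spleen are at best lower bounds for these genes.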
